A study of Arabidopsis thaliana with 18 samples.

Results

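The genes described here are those encoded in the plastid and mitochondrial genomes of Arabidopsis thaliana, taken as every gene row whose locus ID begins with ATCG (plastid) or ATMG (mitochondrion). The rule gave 181 IDs, 69 plastid and 112 mitochondrial. The table of mature pollen nuclei held 92 of them (35 plastid and 57 mitochondrial) among 28424 entries, and the table of late microspores held 175 (68 and 107) among 24292. Both tables shared 86 IDs. The choice used the IDs alone and no measured value.

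RNA was sequenced from 18 Col-0 libraries in 6 groups of 3. V-Mt plants carried pLat52:REF6-GFP, in which the LAT52 promoter, active in the vegetative cell, drives a GFP fusion of REF6, an enzyme that removes methyl groups from histone H3 lysine 27. They also had an RFP histone marker under the HTR10 promoter. The histone of that marker is written HTR10 in the first pollen library and in the microspore libraries, and runs on through HTR15 across the other V-Mt pollen libraries. WT pollen carried pACTIN11:H2B-GFP and pHTR10:HTR10-RFP, and WT microspores carried pHTR10:HTR10-RFP alone. V-Mt VC and WT VC were GFP-sorted nuclei of the vegetative cell of mature pollen, and V-Mt SC and WT SC were RFP-sorted nuclei of the sperm cells. V-Mt LMS and WT LMS were whole late microspores sorted by green autofluorescence, about 100000 per sample, with RFP-positive grains excluded. RNA from nuclei was captured with a poly(A) purification kit, while microspores gave total RNA, and both were amplified with SMART-Seq. The labels number the replicates without saying whether they came from separate plants, so p-values here reflect sample-to-sample spread alone, and that spread may be technical. All groups thus carried an RFP marker driven by the HTR10 promoter, whereas the GFP fusion was another one in WT pollen and was absent from WT microspores.

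Plastids and mitochondria keep small genomes that encode part of their own photosynthetic or respiratory complexes and ribosomal parts, while most of their proteins are encoded in the nucleus. Plant organelle transcripts are mostly not polyadenylated, and a poly(A) tail there marks an RNA for decay. During pollen maturation in Arabidopsis, organelle DNA is degraded by the exonuclease DPD1. A large copy of the mitochondrial genome also sits in the nuclear genome, beside the centromere of chromosome 2, so RNA reads from an identical stretch can be assigned to either place.

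Identical copies limit what many of the values below can be assigned to, and a few sequences are shown for that reason. They were read from the RefSeq TAIR10.1 reference, whose mitochondrial sequence may differ from the one used to make the tables. The coding sequence of atp9, the membrane ring subunit of ATP synthase, spans 225 bases at MT:270961-271185 (minus strand), and the nuclear locus AT2G07671 holds the same 225 bases at chromosome 2, 3251856 to 3252080 (minus strand). No base differs, so both runs are in lower case throughout.

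mitochondrial atp9: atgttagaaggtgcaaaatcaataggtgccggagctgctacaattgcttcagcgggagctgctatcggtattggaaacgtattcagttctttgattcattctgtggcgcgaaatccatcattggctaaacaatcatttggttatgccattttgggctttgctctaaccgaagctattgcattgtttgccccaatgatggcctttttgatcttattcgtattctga

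AT2G07671 copy of atp9: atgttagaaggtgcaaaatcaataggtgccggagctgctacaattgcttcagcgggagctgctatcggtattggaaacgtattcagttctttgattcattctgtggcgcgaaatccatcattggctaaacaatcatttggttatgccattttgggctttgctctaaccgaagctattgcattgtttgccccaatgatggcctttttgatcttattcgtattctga

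The coding sequence of rps12, a small-subunit ribosomal protein, is 378 bases at MT:288446-288823 (plus strand) and is repeated without a difference in AT2G07675, at chromosome 2, 3270410 to 3270787 (plus strand). The first 120 bases of each are shown, MT:288446-288565 and chromosome 2, 3270410 to 3270529.

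mitochondrial rps12, first 120 coding bases: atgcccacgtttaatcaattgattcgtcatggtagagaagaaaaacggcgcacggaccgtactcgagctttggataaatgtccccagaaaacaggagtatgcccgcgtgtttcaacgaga

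AT2G07675, first 120 coding bases: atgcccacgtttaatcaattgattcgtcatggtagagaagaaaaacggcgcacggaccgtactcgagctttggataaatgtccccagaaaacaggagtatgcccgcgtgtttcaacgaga

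The same holds for nad3, a complex I subunit, and AT2G07751 (357 bases, 0 differences). Within the plastid genome, rps7 lies in both arms of the inverted repeat, at Pltd:97478-97945 (minus strand) and Pltd:140704-141171 (plus strand), with 0 differences over 468 bases. Its first 120 coding bases are shown because a single sequence stands for 2 locus IDs.

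plastid rps7, first 120 coding bases: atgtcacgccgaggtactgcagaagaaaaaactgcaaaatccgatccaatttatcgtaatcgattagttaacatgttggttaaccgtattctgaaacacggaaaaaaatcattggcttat

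By nucleotide BLAST, 51 of the 53 chromosome 2 loci of the microspore table numbered in this region, and 36 of the 40 in the pollen table, were covered over at least 90% of their length by mitochondrial sequence with at least 99% identity in the longest match. These 51 and 36 loci span 3239693 to 3503476 of chromosome 2 and are called the insertion below.

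The files give FPKM, a fragment count scaled for gene length and library depth, and a share is the percent of a library's summed FPKM held by a set of genes. Judged by the spacing of the lowest FPKM values, a pollen library held about 9400000 to 24800000 fragments and a microspore library about 1900000 to 3200000, so that 1 fragment on 1 kb is worth 0.0403 to 0.106 FPKM in pollen and 0.312 to 0.526 FPKM in microspores. REF6 stood at 1303, 2248 and 3001 FPKM in V-Mt VC against 0.42 to 1.1 in WT VC, and at 506 to 1175 in V-Mt LMS against 77.7 to 124.9 in WT LMS. The 6 sperm markers summed to 25366 to 25897 FPKM in V-Mt SC, to 16883 to 19296 in WT SC and, among vegetative nuclei, to 3224 to 3529 in V-Mt VC and 172 to 226 in WT VC. DAN1 alone gave 3393, 3390 and 3084 FPKM of the V-Mt VC sums and 161, 165 and 130 FPKM of the WT VC sums. Of the other sperm markers MGH3, DUO1 and GCS1 were also higher in V-Mt VC, GEX2 was lower and DAZ1 overlapped. The 6 vegetative markers summed to 3409 to 4015 FPKM in WT VC, but to 800 to 896 in V-Mt VC. VGD1 alone gave 778, 693 and 762 FPKM of the V-Mt VC sums, against 1394, 1599 and 1313 FPKM in WT VC. The other vegetative markers were lower in V-Mt VC by a larger factor. The 2 tables were normalized separately and came from different RNA preparations, so their levels lack a common scale.

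Plastid and mitochondrial genes made up a few percent of the FPKM of whole microspores and a minute part of that of pollen nuclei. In V-Mt LMS the plastid share was 4.63%, 5.67% and 4.11%, and in WT LMS it was 4.11%, 3.73% and 3.84%. The mitochondrial share was 3.17%, 4.36% and 2.77% in V-Mt LMS and 2.38%, 2.71% and 2.53% in WT LMS. In each microspore library the plastid genes held more FPKM than the mitochondrial genes, with a ratio of 1.301 to 1.73.

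In pollen nuclei the order was the opposite, with the mitochondrial share above the plastid share in all 12 libraries. The mitochondrial share was 0.00300%, 0.00364% and 0.00416% in V-Mt VC and 0.000800%, 0.000217% and 0.000251% in WT VC. Sperm nuclei of V-Mt had 0.000975%, 0.000977% and 0.0140%, and those of WT had 0.0414%, 0.0724% and 0.000720%. The VC groups did not overlap, whereas the sperm libraries ranged from inside the WT VC range to far above V-Mt VC, with replicates 1 and 2 of WT SC and replicate 3 of V-Mt SC standing far above the other 3. The insertion loci, not counted in this share, held 0.00131%, 0.00147% and 0.00198% in V-Mt VC and 0.000249%, 0.000203% and 0.000283% in WT VC. In sperm nuclei they held 0.000395%, 0.000141% and 0.00335% (V-Mt SC) and 0.04295%, 0.0776% and 0.00161% (WT SC).

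The plastid share of nuclei was lower still. It was 0.000357%, 0.000263% and 0.000294% in V-Mt VC and 0.000158%, 4.58e-05% and 0.000103% in WT VC. In sperm nuclei it was 0.000210%, 5.13e-06% and 0.00209% (V-Mt SC) and 0.00176%, 0.000638% and 1.71e-05% (WT SC). The same 3 sperm libraries were again the highest.

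**Figure D1:**
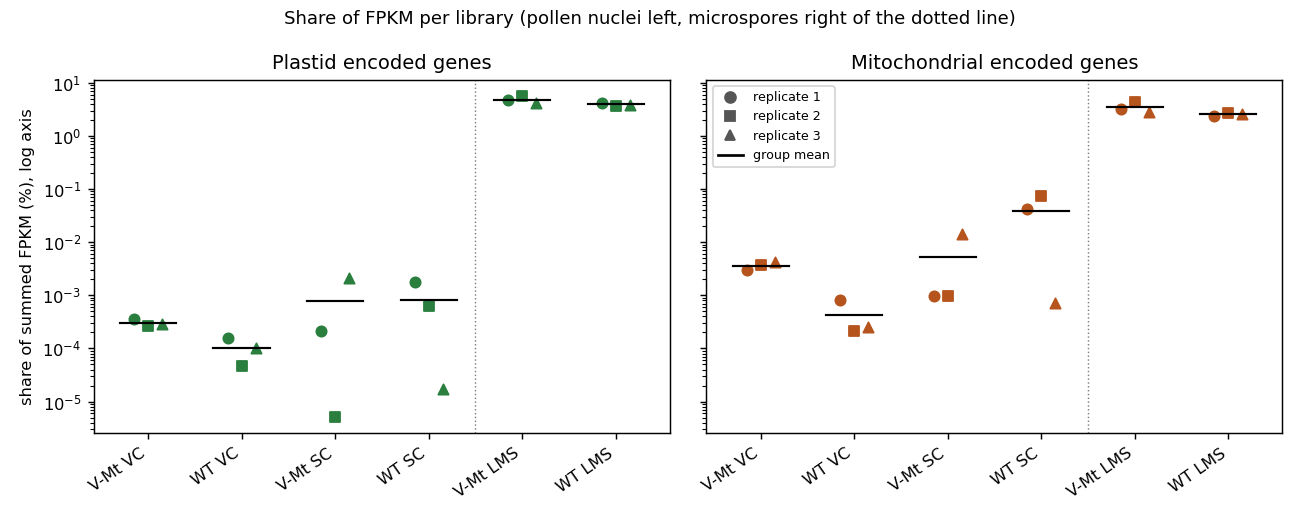
Share of summed FPKM (percent, log axis) held by plastid genes (left panel) and mitochondrial genes (right panel) in each of the 18 libraries, with a line at the mean of each group. Microspore libraries sit between 2.38% and 5.67%, pollen libraries at or below 0.0724%, and within sperm nuclei 3 libraries lie well above the other 3.

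The sums of green tissue and of vegetative markers were also highest in these 3 sperm libraries, whereas that of tapetum markers was not. The 7 green tissue markers, nuclear genes of photosynthesis, summed to 31.2, 44.8 and 5.02 FPKM in replicates 1 to 3 of WT SC and to 1.37, 0.13 and 7.34 FPKM in those of V-Mt SC. RBCS1A alone gave 23.55, 38.31 and 2.98 FPKM of the WT SC sums. In WT SC only LHCB2.1 of the 7 was at 0 in all 3 libraries, and in V-Mt SC LHCB2.1 and PSAD-1 were. The 6 vegetative markers summed to 1341, 1379 and 926 FPKM (WT SC) and to 476, 542 and 1302 FPKM (V-Mt SC), again highest in the libraries richest in organelle RNA, as was REF6 in V-Mt SC (28.9, 58.4 and 436 FPKM). Single vegetative markers were mixed. VGD1 and BUPS1 ran as the sums did, and ANX2 did so in WT SC alone. ANX1 was highest in replicate 3 of WT SC. CPK34 (47.0, 65.0 and 76.5 FPKM in WT SC, 56.3, 55.4 and 2.80 in V-Mt SC) and PRK6 ran the opposite way in both groups. Green tissue markers also summed to 69.4 to 76.1 FPKM in V-Mt VC against 0.66 to 1.55 in WT VC, where 4 of the 7 were at 0. For the 8 tapetum markers the sum was 40.6 to 50.5 FPKM in V-Mt VC, and WT VC had 12.1 to 15.9. Replicates 1 to 3 of WT SC had 0.05, 0 and 2.16 FPKM for these, and replicates 1 to 3 of V-Mt SC had 6.29, 0.79 and 5.55. MS1 and ATA7 were at 0 throughout V-Mt SC, and CYP703A2, A9 and ATA7 throughout WT SC. The part of other cells or of vegetative RNA in the organelle shares was not tested, and in such bulk libraries fewer cells of a type and less RNA per cell cannot be told apart.

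In late microspores, 10 plastid members had a mean above 1000 FPKM, 34 lay between 100 and 1000, 23 between 10 and 100, and 1 below. Of the mitochondrial members, 9 lay above 1000 FPKM, 18 between 100 and 1000, 49 between 10 and 100, 27 between 1 and 10, and 4 below 1. The median member stood at 191.6 FPKM (plastid) and 33.3 FPKM (mitochondrial), and the median of all entries was 12.03. Of the 100 entries with the highest mean FPKM, 10 were plastid and 9 were mitochondrial members.

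The files and the reference name only 31 of the 181 members, 8 plastid and 23 mitochondrial, and the others are given by locus ID alone. The highest plastid row, ATCG00470, ranked 3rd among all entries. Its FPKM was 8142, 8473 and 5910 in V-Mt LMS and 6834, 6498 and 6662 in WT LMS. ATCG00820 followed with 8839, 5940 and 5962 FPKM in V-Mt LMS and 5535, 4451 and 6117 in WT LMS. Both rows overlapped between the genotypes.

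Next among plastid rows was ATCG01310, ribosomal protein L2, a core protein of the large ribosomal subunit. Its row gave 3686, 3872 and 3866 FPKM in V-Mt LMS and 2816, 3147 and 3381 in WT LMS, without overlap. ATCG01240, ribosomal protein S7 of the small subunit, went the other way, with 1531, 2923 and 1530 FPKM in V-Mt LMS and 2976, 3715 and 2600 in WT LMS. Replicate 2 of V-Mt LMS lay inside the WT range. The annotated isoform of ATCG01240 did not go this way, at 162, 165 and 128 FPKM in V-Mt LMS and 125, 153 and 111 in WT LMS. The lower gene row thus came from transcript models added by the authors' assembly, which held 94.5% of its mean. The other leading plastid rows were ATCG01040, ATCG00790, ATCG00740, ATCG00170, ATCG00830 and ATCG00380, with means over the 6 libraries of 1162 to 2898 FPKM.

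One row led the mitochondrial genes. ATMG00660, second among all entries, held 27.8% of the mitochondrial FPKM on average. It stood at 8744, 13832 and 7784 FPKM in V-Mt LMS and 7076, 9656 and 7891 in WT LMS. ATMG00030 followed with 3883, 6801 and 4563 FPKM in V-Mt LMS and 3540, 5426 and 4553 in WT LMS. The genotypes overlapped in both rows.

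The next mitochondrial rows were ATMG00080, ATMG00830, ATMG00090 and ATMG00580, with means of 1708 to 2699 FPKM. ATMG00500 differed more between genotypes, with 2163, 1839 and 1360 FPKM in V-Mt LMS and 730, 909 and 729 in WT LMS, and no overlap. ATMG01190, ATP synthase subunit 1, part of the catalytic head of the enzyme, stood at 909, 1521 and 1123 FPKM in V-Mt LMS and 990, 989 and 1090 in WT LMS. Next came a pair of complex I subunits. ATMG00990, NADH dehydrogenase 3, ranged from 565 to 1710 FPKM over the 6 libraries, and ATMG01320, NADH dehydrogenase 2B, from 456 to 1147, both with overlapping genotypes.

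**Figure D2:**
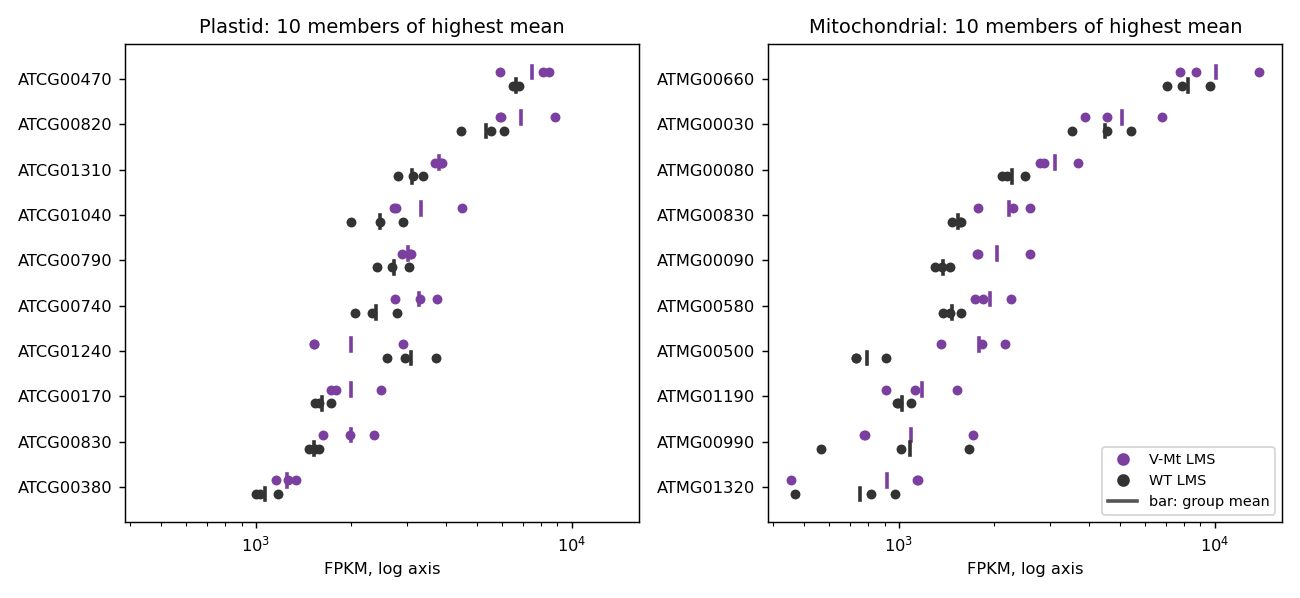
FPKM (log axis) of the 10 plastid (left panel) and 10 mitochondrial (right panel) rows with the highest mean in late microspores. Points are the 3 libraries of V-Mt LMS and of WT LMS and bars are group means; ATCG00470 and ATMG00660 lead, and ATMG00500 shows the widest gap between genotypes among the mitochondrial rows.

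Several of these rows rest largely on transcript models that the authors' assembly added. In the isoform table, 14 members of the microspore table contained such new models. They held 99.6% of the mean FPKM of ATMG00030, 96.1% of ATCG01040, 94.5% of ATCG01240, 97.8% of ATMG01320 and all of that of ATMG00830. For ATCG01310 the annotated isoform gave 1762 of the 3461 FPKM, and for ATMG00660 nearly all (9158 of 9164). New models together held 17.2% to 23.2% of the plastid and 26.3% to 30.6% of the mitochondrial FPKM of a microspore library. With annotated isoforms only, the shares fell to 3.83% ± 0.578 and 3.03% ± 0.180 (plastid, V-Mt LMS and WT LMS, mean ± SD, n = 3) and to 2.48% ± 0.641 and 1.80% ± 0.109 (mitochondrial).

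**Figure D3:**
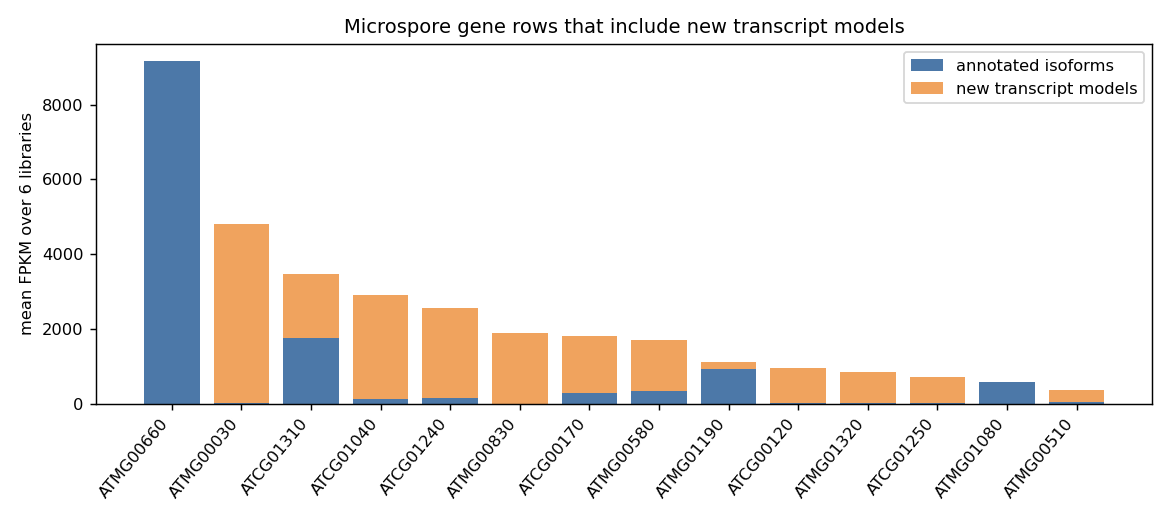
Mean FPKM over the 6 microspore libraries of the 14 members whose gene rows include new transcript models, split into annotated isoforms and new models. ATMG00660 is made almost wholly of its annotated isoform, whereas ATMG00030, ATMG00830 and ATCG01040 are made almost wholly of new models.

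The repeated genes show the effect of this on identical sequences. The annotated isoforms of the 2 rps7 IDs, ATCG00900 and ATCG01240, had equal values in all 6 libraries, from 111 to 165 FPKM, while their gene rows differed (mean 140.9 against 2546 FPKM). Likewise ATCG00830 and ATCG01310 shared one annotated value, from 1470 to 2360 FPKM. Equal rows also joined ATCG00840 with ATCG01300 (209.6 to 453 FPKM), ATCG00860 with ATCG01280 (78.9 to 179 FPKM) and ATCG00905 with ATCG01230 (30.7 to 134 FPKM). For such pairs the level of one copy cannot be told apart from that of its partner.

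Mitochondrial genes and their nuclear copies behaved the same way, evenly for some and unevenly for others. ATMG00980, the S12 ribosomal protein whose sequence is printed above, equalled AT2G07675 in all 6 libraries, with 128, 187 and 108 FPKM in V-Mt LMS and 157, 92.2 and 136 in WT LMS. ATMG00480, subunit 8 of the ATP synthase, equalled AT2G07707 (182 to 388 FPKM). ATMG00900, a cytochrome c biogenesis protein of the haem delivery pathway, equalled AT2G07771 (21.4 to 70.6 FPKM).

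By contrast, ATMG01080, ATP synthase subunit 9, had a mean of 575.7 FPKM, and its copy AT2G07671 had 2198. AT2G07671 was the higher of the pair in 6 of 6 libraries, although the coding sequences are identical. New transcript models held 71.1% of its mean, and the annotated isoforms alone averaged 634.7 FPKM for AT2G07671 and 563.9 for ATMG01080. AT2G07751, with no new model, averaged 3097 FPKM and ATMG00990 1085. Other pairs ran the opposite way in 6 of 6 libraries, as ATMG01320 with 832 FPKM against 260 for AT2G07689. Of 33 pairs of a mitochondrial member and a locus of the region noted as its match, 8 were equal in all 6 libraries, the nuclear locus was higher throughout in 7, the mitochondrial member was higher throughout in 7, and 11 were mixed. The insertion loci together held 1.19% ± 0.308 of the FPKM in V-Mt LMS and 0.914% ± 0.0671 in WT LMS (mean ± SD, n = 3). Counting them as mitochondrial brought that share to 4.62% ± 1.14 and 3.45% ± 0.211.

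The first comparison asked whether the V-Mt line changed organelle gene RNA in microspores. The mean mitochondrial share was 1.35-fold higher in V-Mt LMS (log2 ratio 0.44), with no overlap, and the plastid share was 1.23-fold higher (log2 ratio 0.30), with the lowest V-Mt library just below the highest WT library. The exact 2-sided permutation test gave p = 0.10 for the mitochondrial and p = 0.20 for the plastid share. With 3 libraries against 3 it cannot go below 0.10, and over the 10 share tests made here the adjusted values were 0.333 and 0.400. Without replicate 2 of V-Mt LMS the log2 ratios were 0.23 and 0.17. Green tissue markers went the opposite way, summing to 4733 to 7680 FPKM in V-Mt LMS and 8376 to 9469 in WT LMS. RBCS1A made up most of these sums, at 4173, 3293 and 5752 FPKM in V-Mt LMS and 6872, 6421 and 7214 in WT LMS. PSAD-1 and PSBO1 were also lower without overlap, whereas LHCB1.1, RCA, LHCB2.1 and GAPA overlapped, and limma called none of the 7. Tapetum markers overlapped (1008 to 1424 and 1112 to 1524 FPKM), with 6 of the 8 in the table. The part of either in the shares was not tested.

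Gene by gene, no organelle member passed the test. Of the 175 members in the table, 66 plastid and 87 mitochondrial ones reached 1 FPKM in at least 3 libraries and were tested. By limma on log2(FPKM + 1) with Benjamini-Hochberg adjustment, 0 of these 153 were called at an adjusted p under 0.05, where the background over all 18002 tested entries was also 0%. At an unadjusted p under 0.05 the limma test had 14 members higher and 2 lower in V-Mt LMS. Among all tested entries it had 349 higher and 846 lower. On simulated microspore data the test recovered 3 of 100 genes changed by 2 on the log2 scale and 13 of 100 changed by 3, so differences of this size were mostly not detectable with these libraries.

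Most tested members lay slightly above 0. The log2 difference was above 0 for 117 of the 153, with a median of 0.28, beside a median of -0.13 over all tested entries. The 3 V-Mt libraries lay wholly above the 3 WT libraries for 24 members (15.7%) and wholly below for 1, where the background over all tested entries was 4.54% above and 7.52% below. Organelle genes share their libraries and scaling, so their differences are not independent, and the count describes the tested members only.

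The members with the smallest p-values were mitochondrial. ATMG00810 stood at 384, 446 and 425 FPKM in V-Mt LMS and 180, 154 and 113 in WT LMS (log2 difference 1.51 ± 0.27 SE, limma adjusted p = 0.512). ATMG00500, with the values given above, had a log2 difference of 1.16 ± 0.23 SE (limma adjusted p = 0.568). The libraries of the genotypes did not overlap in either row, and neither row passed the test.

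**Figure D4:**
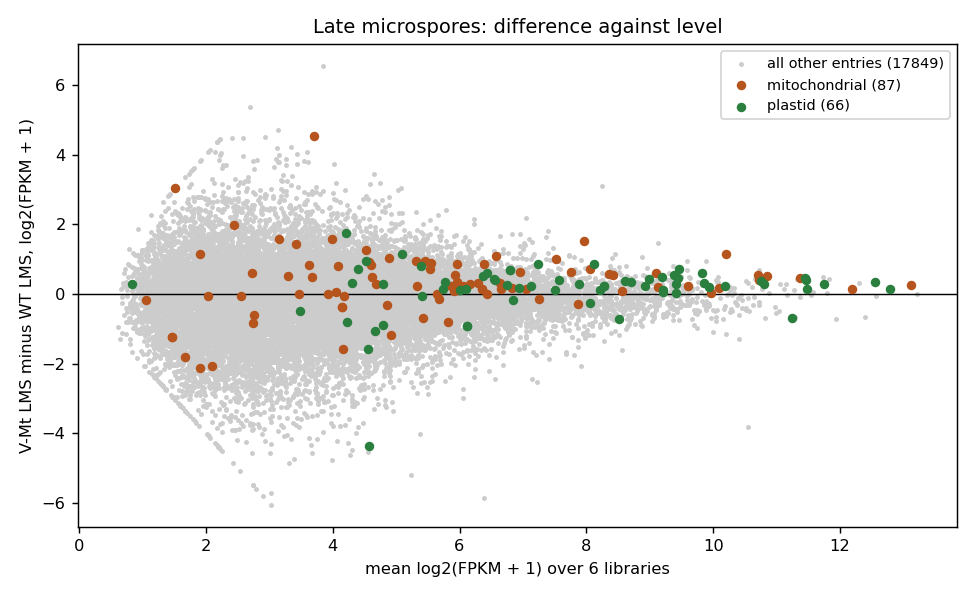
Difference between V-Mt LMS and WT LMS in log2(FPKM + 1) against the mean level over the 6 libraries, for 66 plastid members, 87 mitochondrial members and the other 17849 tested entries in grey. Members of high level cluster slightly above 0, and low members spread as widely as other entries.

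The annotated members, grouped by role, were mostly a little above 0 as well. Of 11 respiratory chain and ATP synthase genes, 10 were in the microspore table, from 13.9 to 1104 FPKM in mean, and 9 of the 10 had a log2 difference above 0, with none called. ATMG00480 stood at 388, 352 and 295 FPKM in V-Mt LMS and 238, 207 and 182 in WT LMS, without overlap, and the values belong equally to its nuclear copy. ATMG01280, related to subunit II of cytochrome c oxidase, the terminal oxidase, was the one below 0, at 21.7, 29.3 and 55.1 FPKM against 52.8, 43.9 and 65.6.

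Of the 5 plastid ribosomal protein IDs, 4 had a difference above 0, beside 7916 of all 18002 tested entries. The ID below 0 was ATCG01240, and new models held 94.5% of its mean. It shares its annotated rps7 values with ATCG00900, counted among those above 0, so rps7 enters this count under both IDs. ATCG00750, ribosomal protein S11, stood at 341, 426 and 359 FPKM in V-Mt LMS and 164, 225 and 239 in WT LMS. ATCG00670, the plastid-encoded subunit of the Clp protease, which degrades proteins in the stroma, stood at 1061, 1026 and 669 FPKM against 565, 593 and 488. Neither overlapped between genotypes, and limma gave each an adjusted p of 0.698. The 3 cytochrome c biogenesis genes averaged 41.9 to 345 FPKM, 2 with a difference above 0 and 1 below.

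In pollen nuclei, no plastid member was high enough to enter the test of single genes. None of the 35 plastid members reached 1 FPKM in 3 libraries, 9 reached it in at least 1 library, and the highest single value was 16.2 FPKM, for ATCG00800 in replicate 3 of V-Mt SC. ATCG00470, the leading plastid row of microspores, was at 12.1, 4.59 and 0 FPKM in WT SC. The leading plastid row of V-Mt VC, ATCG00800, was at 1.41, 0 and 0.30 FPKM. In WT VC no plastid row reached 1 FPKM in any library.

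Mitochondrial RNA was detected more often. Of the 57 mitochondrial members, 37 reached 1 FPKM in at least 1 library and 10 did so in at least 3, which was the condition for testing. By group, 28 members reached 1 FPKM in a library of WT SC, 10 did so in V-Mt VC, 8 did in V-Mt SC and WT VC had 2. Because a member could pass through the group where it is high, counts over the 10 tested ones do not describe all 57.

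The most abundant mitochondrial row of WT SC was ATMG01080, ATP synthase subunit 9, at 59.8, 244 and 1.97 FPKM. WT VC had it at 0 throughout, while it stood at 1.29, 0 and 2.63 FPKM in V-Mt VC and at 0, 0 and 10.9 in V-Mt SC. New transcript models held 98.4% of its mean FPKM. Its nuclear copy AT2G07671, whose sequence is printed above, was higher in the same libraries, reaching 453, 833 and 17.1 FPKM (WT SC) and 0, 0 and 39.5 FPKM (V-Mt SC). ATMG00510 and ATMG00070 came next in WT SC, at 108, 149 and 0.33 FPKM and at 44.4, 126 and 0.20 FPKM. Replicate 3 was the lowest WT SC library in each of these rows.

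ATMG00030 was the only member above 0 in all 3 libraries of V-Mt SC, at 4.40, 8.50 and 141 FPKM. It was also the leading row of V-Mt VC, at 9.94, 16.7 and 9.19 FPKM. WT SC had 74.3, 38.2 and 2.71 FPKM and WT VC 2.11, 0 and 0. ATMG00660, the leading mitochondrial row of microspores, reached 14.98 FPKM at most in pollen.

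**Figure D5:**
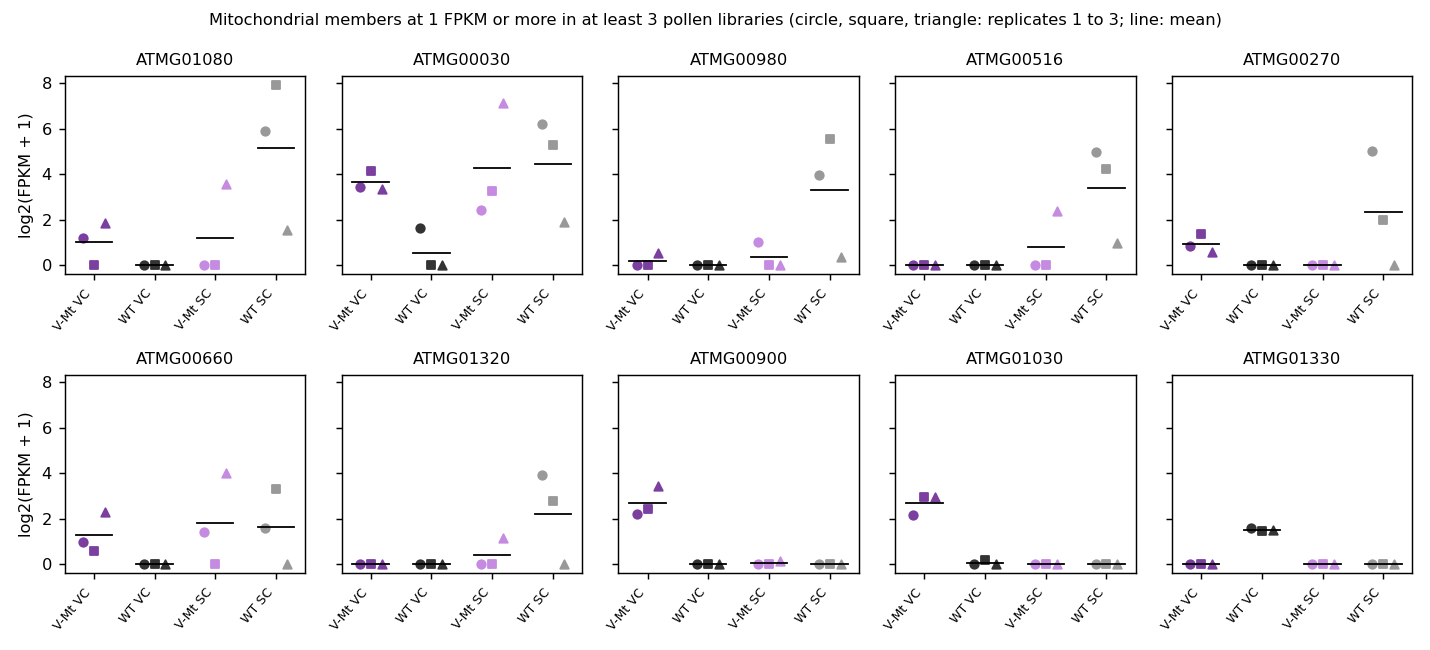
Level in log2(FPKM + 1) of the 10 mitochondrial members that reached 1 FPKM in at least 3 of the 12 pollen libraries, by group, with replicates as circle, square and triangle and a line at the group mean. ATMG00900 and ATMG01030 are highest in V-Mt VC, ATMG01330 in WT VC, and the 7 others are highest in replicates 1 and 2 of WT SC or replicate 3 of V-Mt SC.

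In the vegetative cell, every V-Mt library had larger organelle shares than every WT library. The mean mitochondrial share was 8.51-fold higher in V-Mt VC (log2 ratio 3.09), and the plastid share was 2.98-fold higher (log2 ratio 1.57), with no overlap in either. The exact 2-sided permutation test gave p = 0.10 for both, the smallest value that 3 against 3 allows, and 0.333 when adjusted over the 10 share tests. Without replicate 1 of WT VC the mitochondrial log2 ratio was 3.94. All plastid rows together summed to only 3.38, 2.46 and 2.76 FPKM in V-Mt VC and 1.41, 0.43 and 0.95 FPKM in WT VC. By the depth estimate given above such sums rest on few fragments, so the plastid ratio lies near the detection limit. The plastid ratios of the sperm comparisons below use these sums or sperm sums as low as 0.06 FPKM (replicate 2 of V-Mt SC). V-Mt VC also had the higher sums of sperm, green tissue and tapetum markers given above, and their part in the shares was not tested. Single markers were mixed. Of 6 tested sperm markers limma called 4 higher and 1 lower, of 7 green tissue markers 6 and 0, and of 6 tested tapetum markers 4 and 2. Of all tested entries 62.5% were called higher and 10.8% lower.

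Of the 10 mitochondrial members tested, 2 were called higher and 1 lower in V-Mt VC, against a background of 62.5% of all tested entries called higher and 10.8% called lower (73.3% in either direction). ATMG00900, the cytochrome c biogenesis protein, rose from 0, as listed in each WT VC library, to 3.68, 4.41 and 9.83 FPKM in V-Mt VC (limma adjusted p = 3.45e-06). AT2G07771 of the insertion had equal values in all 12 libraries, so the rise cannot be assigned to the organelle. ATMG01030 stood at 3.42, 6.87 and 6.84 FPKM against 0, 0.14 and 0 (log2 difference 2.63 ± 0.20 SE, limma adjusted p = 7.01e-07), and its annotated isoform alone was at 0, 0 and 0.79 FPKM in V-Mt VC. ATMG01330 was the one that fell, from 2.00, 1.72 and 1.88 FPKM in WT VC to 0 in every V-Mt VC library (limma adjusted p = 2.13e-08). All pollen groups entered 1 fit, and groups listed at or near 0 add almost no spread to it. For these 3 rows the p-values, here and in the comparisons below, thus do not measure the spread of the high group alone. Each of these 3 members passed the filter only through the group in which it is high, so their entry into the test was not independent of the difference. With no filter and all 92 members tested they were also called (limma adjusted p = 8.87e-06, 2.16e-06 and 8.2e-08). The calls of ATMG00900 and ATMG01030 were lost under quantile normalization (limma adjusted p = 0.0735 and 0.167). Without any 1 of the V-Mt VC libraries these rows no longer reached 1 FPKM in 3 libraries. That left 1 call, where 62.1% to 62.4% of all tested entries were called. ATMG01330 dropped out of the test in the same way without any 1 of the WT VC libraries. That left 2 calls, where 68.2% to 70.0% of all tested entries were called. The median log2 difference of all tested entries was itself 1.92, and became 1.39 when libraries were scaled by median ratios and -0.02 when they were quantile normalized. ATMG00900 and ATMG01030 thus stood above that median, and ATMG01330 below it.

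Between the wild-type nuclei, the sperm cells held more RNA listed under mitochondrial IDs in 2 of 3 libraries. The nuclear insertion loci held a larger share than these IDs in each WT SC library, as given above, and identical copies cannot be told apart. The ratio of mean shares was 90.3 for mitochondrial genes (log2 ratio 6.50) and 7.85 for plastid genes (log2 ratio 2.97). The groups overlapped in the plastid share and, through replicate 3 of WT SC, in the mitochondrial share. The exact 2-sided permutation test gave p = 0.20 (mitochondrial) and p = 0.50 (plastid), or 0.400 and 0.714 when adjusted over the 10 tests. The mitochondrial log2 ratio was 5.64 without replicate 2 of WT SC and 7.35 without replicate 1 of WT VC, and the plastid one was 1.68 without replicate 1 of WT SC.

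Of the 10 tested members, 5 were called higher in WT SC and 1 lower, against a background of 27.3% called higher and 13.1% called lower (40.4% in either direction). The 5 were ATMG01080 (log2 difference 5.14 ± 1.45 SE, limma adjusted p = 0.0155), ATMG00030 (3.93 ± 1.3, adjusted p = 0.0333), ATMG00516, ATMG00980 and ATMG01320. ATMG00516 stood at 30.3, 17.8 and 0.97 FPKM, and ATMG00980 at 14.6, 46.0 and 0.27 FPKM, equal to its nuclear copy in every library. ATMG01320, NADH dehydrogenase 2B, stood at 13.99, 5.88 and 0 FPKM. These last 3 rows were listed at 0 in all WT VC libraries, and ATMG01330, the one that fell, was listed at 0 in all WT SC libraries. The last 3 rows passed the filter with 2 libraries of WT SC and 1 of V-Mt SC each, and ATMG01330 through WT VC alone. Their entry into the test was thus not independent of the difference, and the count describes the tested members only. With no filter 12 of 92 members were called, against 26.9% of all entries. This comparison and that of V-Mt VC with WT VC use the same WT VC libraries, so the 2 calls of ATMG01330 are not independent. The number of calls was 2 of 6 tested without replicate 1 of WT SC and 1 of 6 without replicate 2. Of all tested entries 38.4% and 39.9% were then called. The count thus depended on those libraries, in part because members left the test. It was 3, 2 and 2 without replicates 1 to 3 of WT VC. With annotated isoforms alone ATMG01080 was not called (limma adjusted p = 0.515), and ATMG00030 and ATMG01320 were not called after quantile normalization (limma adjusted p = 0.0702 and 0.0738).

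Within V-Mt pollen the shares of sperm and vegetative nuclei overlapped. The log2 ratio of the means, V-Mt SC over V-Mt VC, was 0.56 for mitochondrial and 1.34 for plastid genes. The exact 2-sided permutation test gave p = 0.80 and p = 0.70 (0.800 and 0.778 adjusted over the 10 tests). Replicate 3 was the highest V-Mt SC library in both, and without it the log2 ratios were -1.88 and -1.50. Of the 10 tested members, 2 were called lower and 0 higher in V-Mt SC by limma, where 58% of all tested entries were called lower and 13.4% higher (71.4% in either direction). At an unadjusted p under 0.05 limma again had 2 lower and 0 higher, where 11703 of all 19733 tested entries were lower and 2772 higher. The members were ATMG00900 (0, 0 and 0.10 FPKM in V-Mt SC, log2 difference -2.65 ± 0.26 SE, limma adjusted p = 4.10e-06) and ATMG01030 (0 in all 3). Without any 1 of the V-Mt VC libraries the count was 0, where 59.2% to 59.8% of all tested entries were called. Both members had passed the filter through V-Mt VC alone, as described above, and both were also called without a filter (limma adjusted p = 1.04e-05 for ATMG00900 and 1.85e-06 for ATMG01030).

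Between sperm nuclei of V-Mt and WT no member was called. The log2 ratio of the mean mitochondrial share was -2.85, V-Mt SC over WT SC, and that of the plastid share was -0.06, with overlap in both (exact 2-sided permutation test, p = 0.40 and p = 0.70, or 0.667 and 0.778 adjusted over the 10 tests). By limma 0 of the 10 tested members passed an adjusted p of 0.05, against 5.11% of all tested entries (1.18% higher and 3.93% lower in V-Mt SC). At an unadjusted p under 0.05, 5 members were lower and 0 higher, where 3550 of all 19733 tested entries were lower and 1091 higher. The count was 5 of 10 when replicate 3 of WT SC, the one with little organelle RNA, was left out, and 16.7% of all tested entries were then called. The mitochondrial log2 ratio was -5.29 without replicate 3 of V-Mt SC and -1.99 without replicate 2 of WT SC. The plastid ratio changed sign without replicate 1 or 2 of V-Mt SC or replicate 1 of WT SC.

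The interaction asked whether the V-Mt effect differed between the vegetative cell and the sperm cells. It is the log2 difference of V-Mt and WT in VC minus that in SC, and its sign does not say in which cell type the effect is larger. Of the 10 tested members 3 were called above 0 and 1 below, against a background of 60.5% of tested entries above 0 and 7.18% below (67.7% in either direction). They were ATMG00900, ATMG01030, ATMG00270 and, below 0, ATMG01330. The comparisons of V-Mt with WT within each cell type that enter this difference are those given above. For ATMG00270 the log2 difference was 0.93 in VC and -2.34 in SC, neither of them called. For ATMG01330 it was -1.52 in VC and 0 in SC. ATMG00270 stood at 0.78, 1.57 and 0.51 FPKM in V-Mt VC. WT SC had 32.1, 2.93 and 0 FPKM, and it was listed at 0 in the other 6 libraries (limma adjusted p = 0.0476), and it passed narrowly. ATMG00900, ATMG01030 and ATMG01330 entered through 1 group alone, and with no filter they passed as well (limma adjusted p = 0.000195, 4.89e-05 and 2.36e-06). The interaction count was 9 without replicate 3 of WT SC (70.0% of all tested entries) and 1 under quantile normalization (45.6%). It was between 1 and 2 without any 1 library of V-Mt VC (55.5% to 55.8%) or of WT VC (63.3% to 65.3%).

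Of 38 tested nuclear genes listed for organelle roles, 28 were called higher and 4 lower in V-Mt VC than in WT VC, where 62.5% of all tested entries were called higher and 10.8% lower. Of 13 tested genes for organelle gene expression, limma called 10 higher and 1 lower in V-Mt VC than in WT VC. SIG5, a sigma factor of the plastid RNA polymerase, stood at 31.3, 28.4 and 24.6 FPKM against 0 to 0.09 (log2 difference 4.79 ± 0.27 SE, limma adjusted p = 5.05e-08), while SIG6, another sigma factor, fell from 136.7, 84.4 and 91.9 FPKM to 10.4, 3.31 and 7.95 (log2 difference -3.76 ± 0.46 SE, limma adjusted p = 2.62e-05). Of 6 tested organelle DNA genes, 4 rose and 2 fell. The nuclease gene DPD1 stood at 52.8, 43.0 and 42.1 FPKM in V-Mt VC, where WT VC had 0.07 to 0.56. POLIB, an organelle DNA polymerase, fell from 114, 94.4 and 90.1 FPKM to 4.6, 1.32 and 1. Of 19 nuclear respiratory chain genes, 14 rose and 1 fell, led by the ATP synthase beta subunit gene AT5G08670 at 197, 184 and 139 FPKM against 0.62 to 1.11. ATP2 has 3 near-identical copies, so the level of a single copy is uncertain.

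Between wild-type nuclei, limma called 4 of the 6 organelle DNA genes higher and 1 lower in WT SC, where 27.3% of all tested entries were called higher and 13.1% lower. DPD1 stood at 77.0, 85.2 and 12.3 FPKM in WT SC, high in the libraries that were high in mitochondrial RNA (log2 difference 5.05 ± 0.63 SE, limma adjusted p = 9.39e-05). Of the 13 genes for organelle gene expression, 3 rose and 2 fell. WHY2, a single-stranded DNA-binding protein of mitochondria, stood at 32.5, 5.54 and 7.44 FPKM in WT SC against 0 to 0.31 in WT VC, and RPOTp, the nuclear-encoded plastid RNA polymerase, at 12.9, 4.49 and 5.62 against 24.8 to 31.3. Of the 19 respiratory chain genes 7 rose and 1 fell, and cytochrome c gene AT4G10040, a mobile electron carrier, stood at 914, 1052 and 1628 FPKM in WT SC against 78.5 to 92.4 in WT VC. Between V-Mt SC and WT SC limma called none of the 38 genes tested on these lists, beside 5.11% of all tested entries. At an unadjusted p under 0.05, 3 were higher and 7 lower, where 1091 of all 19733 tested entries were higher and 3550 lower. In microspores limma called none of 39 tested, where 0% of all tested entries were called. At an unadjusted p under 0.05, 0 were higher and 3 lower, beside 349 and 846 of all 18002 tested entries. RPOTm, the mitochondrial RNA polymerase, stood at 133.9, 48.6 and 68.4 FPKM in V-Mt LMS and 52.7, 70.5 and 68.5 in WT LMS.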

How the data were processed

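Genes were quantified by the authors and deposited as FPKM per gene and per isoform, in one table for 12 libraries of pollen nuclei and another for 6 of microspores. HISAT2 2.1.0, RSEM 1.3.1, Bowtie2 (version 2.3.5 for pollen), the TAIR10 build and, for pollen, StringTie 1.3.5 are named in the submitters' processing notes. The 2 tables also hold new transcript models. The files give no read counts, and the depth estimate quoted is indirect, since 53.4% to 72.2% of the low values used lay within 0.2 of a whole fragment. From the microspore file, 2 stray lines of text were left out.

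The deposited FPKM values were tested as log2(FPKM + 1) with limma 3.58.1 (trend, R 4.3.3), separately for each table and with all its groups in 1 fit, over entries that reached 1 FPKM in 3 or more libraries. The pseudocount makes a log2 difference understate the change of low genes. p-values were adjusted by Benjamini-Hochberg over all tested entries at 0.05. Shares of summed FPKM were compared with exact 2-sided permutation tests. Copies were found with BLAST 2.17.0 (e-value 1e-10). Tables and figures were made with Python 3.11.15, pandas 2.3.3, scipy 1.17.1 and matplotlib 3.10.9.

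Tested on simulated data, limma recovered 42 of 100 genes changed by 2 and 65 of 100 changed by 3 on the log2 scale for V-Mt VC against WT VC, with 13 false calls among 19733 entries. For microspores it made 0 false calls among 18002 entries. In each simulation 200 entries with a mean above 3 on the log2 scale were changed and all others were left equal between groups. These counts need not hold for members near 0, nor where most entries differ between the groups.

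The members and the gene lists were chosen with earlier results of these data known. Named genes are the 10 highest members of each organelle in microspores, the 5 highest of each group in pollen, the called members, and up to 4 called genes of each nuclear list by size, or 2 by level where none was called. ATMG00810, ATMG00480, ATMG00900 and ATMG00980 in microspores, ATMG01280, ATCG00670 and ATCG00750 are outside this rule and were named after their values were seen, as were RPOTm in microspores and the pairs of copies. Replicate numbers did not pair libraries, with correlations of deviations between same-numbered libraries from -0.201 to 0.145. Alternatives changed the pseudocount, filter, scaling, replicate block, fitted groups, isoforms and libraries.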

Additional observations from a re-analysis of the deposited data

Results flagged for a closer look

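For 4 mitochondrial members the V-Mt effect in the vegetative cell differed from that in the sperm cells by the interaction test of limma. The difference was 3.27 ± 1.32 (log2, SE) for ATMG00270, 2.65 ± 0.36 for ATMG00900, 2.63 ± 0.29 for ATMG01030 and -1.52 ± 0.11 for ATMG01330 (limma adjusted p = 0.0476, 8.70e-05, 1.81e-05 and 6.83e-07). Of all tested entries 67.7% passed the same test. ATMG00900, ATMG01030 and ATMG01330 passed the filter only through the group in which each is high, and each was also called with no filter. The call of ATMG00270 was lost in 12 of 17 alternatives. Groups of 3 libraries are too small for the test of single outlying libraries.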

How the results depend on the processing

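The number of called members depended most on the filter, the scaling and single libraries, and the cause was not tested. Without a filter, 7 of 92 members were called in V-Mt VC against WT VC (60.8% of all entries), 12 in WT SC against WT VC (26.9%) and 6 in V-Mt SC against V-Mt VC (59.4%). In WT SC against WT VC, a filter on the mean over all libraries gave 14 of 24 (44.1% of all entries), and a fit of those 2 groups only gave 3 of 3 (68.3%). Quantile normalization left 1 in V-Mt VC against WT VC (55.8% of all entries), 1 in V-Mt SC against V-Mt VC (54.5%) and 1 in the interaction (45.6%). With annotated isoforms only, an alternative chosen after seeing the data, V-Mt SC against V-Mt VC had 1 of 9 (71.4% of all entries).

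Leaving out 1 library at a time left 6 to 10 members tested. It gave 1 to 4 calls in V-Mt VC against WT VC (62.1% to 76.3% of all tested entries) and 0 to 5 in V-Mt SC against WT SC (1.96% to 16.7%). There were 1 to 7 in WT SC against WT VC (33.2% to 47.9%), 0 to 2 in V-Mt SC against V-Mt VC (59.2% to 74.4%) and 1 to 9 in the interaction (55.5% to 70.4%). Microspores had 0 in every alternative run. The log2 ratio of plastid shares then ran from -2.9 to 1.23 in V-Mt SC against WT SC, being 0.38 and 0.52 without V-Mt SC replicates 1 and 2 and 1.23 without WT SC replicate 1. In V-Mt SC against V-Mt VC it ran from -1.5 to 1.92, and for mitochondrial shares from -1.88 to 1.06, negative only without V-Mt SC replicate 3. The mitochondrial ratio of V-Mt SC to WT SC stayed negative, from -5.29 to -1.99. Of the nuclear genes, the Twinkle homologue AT1G30680 turned to -0.16 in the interaction under quantile normalization (limma adjusted p = 0.892).

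With the replicate block, 3, 0, 4, 2, 4 and 0 members were called in the 5 pollen comparisons in the order above and in microspores. Of all tested entries 72.8%, 3.08%, 39.6%, 70.5%, 66.7% and 0% were called. ATMG00030 and ATMG01320 lost their calls in WT SC against WT VC (limma adjusted p = 0.0604 and 0.0587). Leaving out ribosomal and transfer RNA genes was not run, because no member is annotated as one in the sources used here.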
